A study of Rattus norvegicus with 20 samples.

Results

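Primary rat islets that had received an adenovirus for the nuclear receptor Nr4a3 were compared with islets that had received an adenovirus for green fluorescent protein (GFP). The comparison took the 5 arrays titled NR4A3 and the 5 arrays titled GFP, which is 10 of the 20 arrays of the series. The other 10 arrays were 5 of untreated islets and 5 of islets given an adenovirus for Nr4a1, and they enter here only through the shared estimate of spread and where they are named. All islets came from male Wistar rats aged 8 weeks and were kept in medium with 10% serum and 8 mM glucose. Virus was present for 18 h, and islets were collected 48 h after it was added. The GFP islets therefore carry a virus and a foreign protein too. The series design and the sample labels name GFP, Nr4a1 and Nr4a3, whereas their treatment protocol speaks of beta-galactosidase and Nkx6.1 viruses. Groups follow the titles here. The labels do not state the promoter in the viruses, the cell types they entered or the animals behind each array. The labels call the replicates biological. Each p-value sets a group difference against the spread between arrays within groups, pooled over all 20 arrays. That spread may be in part technical.

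Nr4a1, Nr4a2 and Nr4a3 form a family of orphan nuclear receptors that are switched on rapidly by hormones, nutrients and stress and act as transcription factors without a known natural ligand. As single molecules they bind a DNA element called NBRE, and as pairs they bind a related inverted repeat. Nkx6-1 is a homeodomain transcription factor of beta cells, and the title of the series ties both receptors to cell cycle genes of the Nkx6-1 pathway. Adult beta cells rarely divide, and genes of DNA replication and mitosis are therefore low in most islet preparations.

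Values are log2 intensities of 1 probe set per gene, the brightest one over all 20 arrays, for 14217 genes. A log2 change is the Nr4a3 mean minus the GFP mean and is given with its standard error (SE) from limma, and a gene was called where its Benjamini-Hochberg adjusted p over all genes was under 0.05. One array stood apart. Nr4a3 replicate 2 had a beta-actin 3' minus 5' difference of 4.62 (log2), where the other 19 arrays had 1.5 to 2.21, and a GAPDH difference of 2.06, where they had 0.271 to 0.739. Its mean correlation with the other arrays across genes was 0.941, against 0.982 to 0.989, and genes are not independent replicates. Its hexokinase control probe sets did not stand apart, at 0.348 within the range of 0.205 to 0.930 for the others. The results are given with and without this array. Islet hormone genes were near the top of the scale in both groups, with Ins1 between 14.94 and 15.01 in the GFP arrays and Gcg between 14.62 and 14.82.

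The probe sets of the delivered gene did not separate the groups. Nr4a3 differed by a log2 of 0.19 ± 0.10 (SE, n = 5 per group, adjusted p = 0.421 in limma), and by 0.12 when Nr4a3 replicate 2 was left out. Its dimmer probe sets differed by 0.16 and 0.50 with all arrays and by -0.06 and 0.19 without that array, and neither passed. Nr4a2 differed by 0.35 ± 0.10 (adjusted p = 0.101) and Nr4a1 by 0.02 ± 0.09 (adjusted p = 0.933). The labels do not say whether the virus carries the part of the transcript that these probe sets read, so the values do not settle whether labels and delivery were right. The brightest Nr4a3 probe set was highest in the arrays labelled Nr4a1, at 5.87 to 6.18, all above the GFP arrays at 5.45 to 5.83. The untreated arrays, which had no virus, read 5.74 to 5.93 and overlapped the Nr4a1 arrays. The arrays labelled Nr4a3 read 5.64 to 6.10, and 5.64 to 5.89 without replicate 2. The difference between the Nr4a3 and Nr4a1 arrays was -0.25 ± 0.10 (adjusted p = 0.326). The probe sets used for Nr4a3 and Nr4a1 do not follow the labels, and an exchange of labels between the Nr4a3 and Nr4a1 arrays cannot be told from the data. The groups below are therefore the arrays labelled Nr4a3 and GFP.

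In the arrays labelled Nr4a3, more genes were higher than lower against the GFP arrays, and the list with the most called genes was that of mitosis, with 37 of 70. The gut hormone gene secretin (Sct) was 13.9-fold higher, the guanylate cyclase C gene Gucy2c 12.0-fold and the neuronatin gene Nnat 9.27-fold. Falls were fewer and smaller, and none of those that held without Nr4a3 replicate 2 reached 2-fold. With all arrays 274 genes (1.93%) were called, of which 249 (1.75%) rose and 25 (0.176%) fell, and a change of 2-fold or more was seen in 58 of the rises and 1 of the falls. Without Nr4a3 replicate 2, 527 genes (3.71%) were called, 472 higher (3.32%) and 55 lower (0.387%), with 47 rises and 0 falls of that size. At an unadjusted p under 0.05, 1171 genes were higher and 647 lower with all arrays. The median log2 change of all genes was 0.0033, and 0.0195 without Nr4a3 replicate 2.

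Of the 274 genes called with all arrays, 254 were also called without Nr4a3 replicate 2, 235 higher and 19 lower. Another 20 lost the call, 14 of them higher and 6 lower, and 273 gained one, 237 higher and 36 lower. Other single arrays also moved these counts by more than 1.5 times. Leaving out GFP replicate 1, 2, 3 or 5 left 152, 132, 149 or 124 rises in place of 249, and leaving out Nr4a3 replicate 1 or 3 left 115 or 136. In place of 25 falls there were 6, 5, 11, 16 and 6 on leaving out GFP replicates 1 to 5 in turn, and 12, 8, 45 and 9 on leaving out Nr4a3 replicates 1, 3, 4 and 5. The groups did not overlap in 443 genes (3.12%) that were higher and 215 (1.51%) that were lower in the Nr4a3 arrays. Without Nr4a3 replicate 2 these were 1061 (7.46%) and 407 (2.86%).

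**Figure D1:**
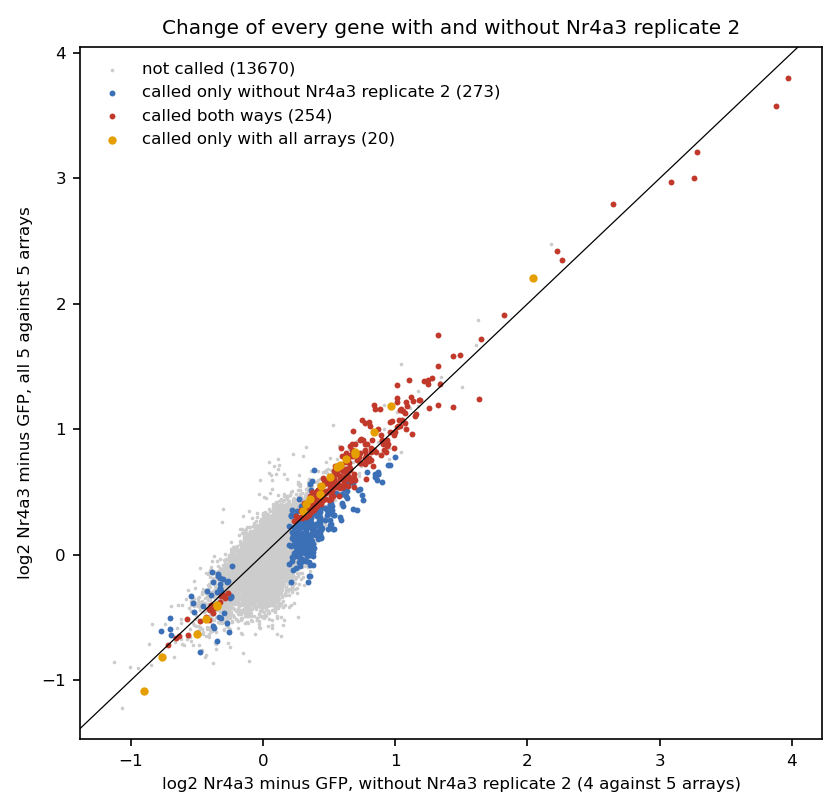
Log2 change of every gene, Nr4a3 minus GFP, without Nr4a3 replicate 2 (horizontal axis, 4 against 5 arrays) and with all arrays (vertical axis, 5 against 5 arrays), with the line of equal values. The 254 genes called both ways include the largest rises, and the 273 genes called only without that array lie mostly between 0.2 and 1 on the horizontal axis.

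The 20 largest rises are given by what their products do, beginning with a hormone and a receptor. Secretin is a gut peptide that drives bicarbonate secretion by the pancreas. Sct read 5.79, 5.09, 5.23, 5.44 and 6.15 in GFP replicates 1 to 5 and 10.40, 8.63, 10.17, 8.41 and 9.07 in Nr4a3 replicates 1 to 5 (log2 intensity). Every Nr4a3 array was more than 2 above every GFP array, and the change was 3.80 ± 0.31 (adjusted p = 5.17e-07). Gucy2c encodes the intestinal receptor for guanylin and uroguanylin. It read 6.14, 6.28, 6.11, 6.95 and 6.49 in the GFP arrays and 10.68, 8.78, 10.42, 9.76 and 10.23 in the Nr4a3 arrays. Nr4a3 replicate 2 was the lowest of its group, and the change was 3.58 ± 0.27 (adjusted p = 1.72e-07) with it and 3.88 ± 0.20 (1.01e-09) without it. The receptor of secretin (Sctr) differed by -0.17 and the guanylin and uroguanylin genes Guca2a and Guca2b by -0.11 and 0.18, and none of them passed the test. In all, 2 of 25 measured genes of gut peptides and guanylate cyclases rose, Sct and Gucy2c, and none fell, with a list median of 0.0031. Every list count is to be read beside the shares of all genes, 1.75% higher and 0.176% lower. Counts above or below 0 are to be read beside the 50.7% of all genes above 0, or 56.2% without Nr4a3 replicate 2.

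Growth factor genes came next. Igfbp3, a carrier of insulin-like growth factors in blood, read 8.90, 7.64, 8.98, 8.70 and 7.09 in the GFP arrays and 11.94, 10.77, 11.63, 10.92 and 10.92 in the Nr4a3 arrays. The GFP arrays spread over almost 2 log2 units, yet the lowest Nr4a3 array lay above them all, and Igfbp3 rose 7.86-fold (2.97 ± 0.41, adjusted p = 0.000457). Its other probe set gave 2.86. Of 36 genes of insulin-like and other growth factor signalling, 3 rose and 1 fell, where 1.75% and 0.176% of all genes did, with a list median of -0.0019. Besides Igfbp3 they were Tgfa, a ligand of the epidermal growth factor receptor (0.76 ± 0.12, adjusted p = 0.00208), the neurotrophin gene Bdnf (0.62 ± 0.13, adjusted p = 0.0168) and Vegfa, the growth factor of blood vessels, which fell by 0.33. Bdnf lost its call without Nr4a3 replicate 1, and Vegfa without any 1 of GFP replicates 1, 2, 3 and 5 or Nr4a3 replicates 1 and 5 (highest adjusted p 0.0557 and 0.0943). The dimmer probe set of Bdnf, at a mean of 3.81, differed by 0.007. Bdnf also lost its call when its probe sets were averaged and in a fit to only the arrays of the groups compared. Bmp2, a bone morphogenetic protein, rose by 1.41 ± 0.21 (adjusted p = 0.00106).

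Nnat is an imprinted gene whose small membrane protein takes part in insulin processing in beta cells. It read 8.71, 8.82, 8.66, 9.24 and 8.76 in the GFP arrays and 12.53, 11.76, 12.46, 11.99 and 11.53 in the Nr4a3 arrays. The change of 3.21 ± 0.22 (adjusted p = 5.05e-08) was 3.29 without Nr4a3 replicate 2. The only other imprinted gene to rise among 18 measured was Cdkn1c (0.63 ± 0.12, adjusted p = 0.00563), which encodes the CDK inhibitor p57, and none fell (list median -0.039). Ddit4l, an inhibitor of the growth regulator mTORC1, read 5.79, 6.22, 6.02, 5.70 and 6.55 in the GFP arrays and 10.40, 8.05, 9.82, 8.46 and 8.59 in the Nr4a3 arrays. It rose 8.04-fold (3.01 ± 0.42, adjusted p = 0.000457). Its relative Ddit4 differed by -0.22, which did not pass, and of 35 genes of mTORC1 and nutrient control 1 other rose, the amino acid transporter gene Slc38a2 (0.35 ± 0.08, adjusted p = 0.0299), with a list median of -0.11. Slc38a2 lost its call without any 1 of GFP replicates 2 to 5 or Nr4a3 replicates 3 and 5 (highest adjusted p 0.0813).

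Several of the large rises were in enzyme genes. Aadat encodes an aminotransferase of lysine and kynurenine breakdown. It read 4.32, 4.44, 4.39, 4.36 and 4.31 in the GFP arrays, close to the lower end of the scale, and 7.51, 7.57, 7.10, 5.98 and 5.74 in the Nr4a3 arrays. The rise was 2.42 ± 0.30 (adjusted p = 0.000188), and Nr4a3 replicates 4 and 5 were more than 1 log2 unit below replicates 1 to 3. Gatm and Gamt encode the first and the second enzyme of creatine synthesis. Gatm read 5.03, 5.49, 4.81, 5.53 and 4.66 in the GFP arrays and 8.24, 7.83, 7.51, 6.47 and 7.23 in the Nr4a3 arrays, a rise of 2.35 ± 0.32 (adjusted p = 0.000451). Its dimmer probe set differed by -0.09, so the 2 probe sets of Gatm disagree. Gamt rose by 0.86 ± 0.19 (adjusted p = 0.0221) but lost the call without any 1 of GFP replicates 2, 3 and 5 or Nr4a3 replicates 1 and 3 (highest adjusted p 0.072).

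Other genes of amino acid and one-carbon metabolism that rose were Aass, the first enzyme of lysine breakdown (0.79 ± 0.16), Ahcy, which clears S-adenosylhomocysteine (0.60 ± 0.10), and the mitochondrial arginase gene Arg2 (0.42 ± 0.08). Aass and Gamt were picked with their values known. In all 6 of 60 measured genes of this list rose and none fell, while 1.75% of all genes rose, and the median was 0.043. Without Nr4a3 replicate 2, 10 rose, and the median was 0.13. Outside this list, Car2, a carbonic anhydrase, rose by 1.59 ± 0.19 (adjusted p = 0.000168), the acidic chitinase gene Chia by 1.72 ± 0.22, and Ddah1, which breaks down inhibitors of nitric oxide synthase, by 1.39 ± 0.20. The fibrinogen chain gene Fga, of blood clotting, ranged from 5.30 to 6.07 in the GFP arrays and read 10.23, 9.02, 8.81, 7.48 and 6.47 in the Nr4a3 arrays. Its change of 2.80 ± 0.63 had the highest adjusted p of the 20 largest rises (0.0238). It lost the call without GFP replicate 1, 3 or 5 or Nr4a3 replicate 1 or 3 (highest adjusted p 0.0715), and it was the only one of 26 liver and coagulation genes that rose.

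Ion channel and other genes completed the 20 largest rises. Kcnd2, a voltage-gated potassium channel, read 5.87, 6.03, 5.87, 5.53 and 5.83 in the GFP arrays and 7.53, 9.29, 7.35, 6.80 and 6.91 in the Nr4a3 arrays. Nr4a3 replicate 2 was the highest, and the rise of 1.75 ± 0.31 (adjusted p = 0.00442) was 1.32 ± 0.16 (0.000114) without it. The sodium channel gene Scn1a rose by 1.39 ± 0.20 and the ubiquitin ligase gene Trim16 by 1.36 ± 0.16. Depdc7, of unclear function, rose by 1.5 ± 0.25. In a fit to only the 10 arrays Kcnd2, Kif20b and Fga were not called. The cell division genes Ect2 and Kif20b, Gas2 and Fsd1l are described further on. In all 20 genes the Nr4a3 arrays lay above the GFP arrays with and without Nr4a3 replicate 2. Of all genes, 3.12% did so with that array and 7.46% without it. The 20 genes were picked for their rise in the same arrays, so this count is no separate support. Of the 9 that have more than 1 probe set, 8 moved the same way in all of them, Gatm being the exception.

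**Figure D2:**
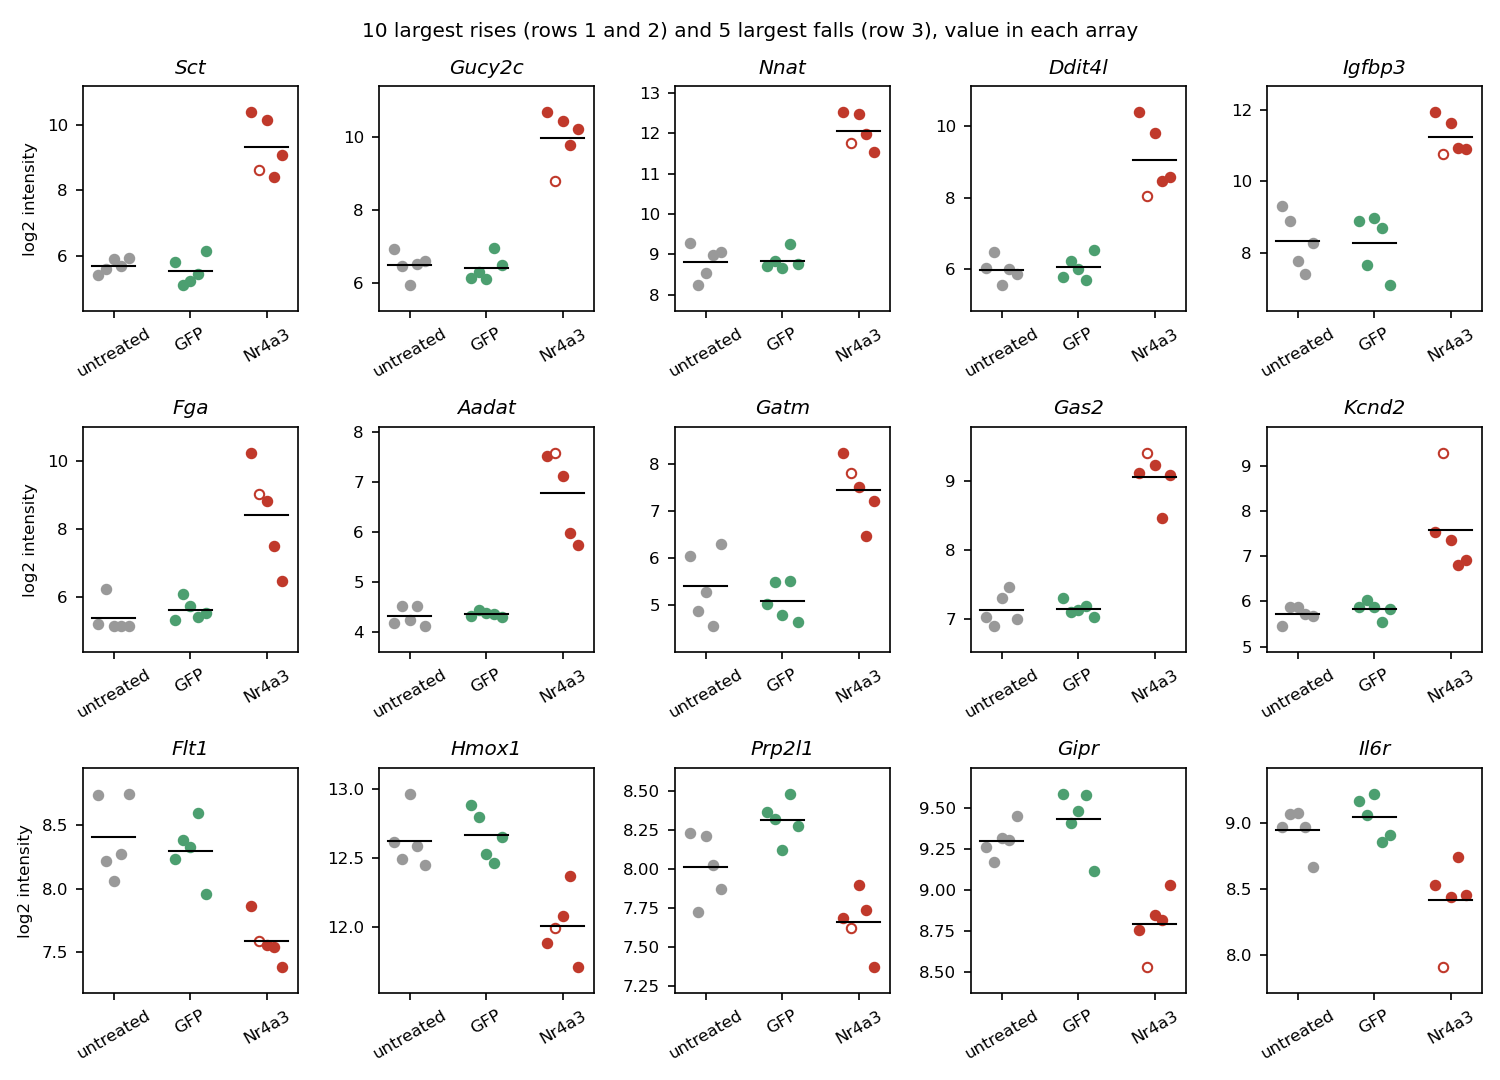
Log2 intensity (vertical axis) of the 10 largest rises and the 5 largest falls in each untreated, GFP and Nr4a3 array, with the group mean as a line and Nr4a3 replicate 2 as an open circle. In the first 2 rows every Nr4a3 array lies above every GFP array, by the widest margin for Sct and Nnat, and in the third row the Nr4a3 arrays lie lower by less than 1 log2 unit on average.

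The promoters of the 20 largest rises were searched for the NBRE, AAAGGTCA, on both strands, in the 250 bases before and 50 bases after the start of each gene (RefSeq, assembly GRCr8). An entry was found for 13 of the 20 genes, and 3 of these held the element. Sequences of 60 bases around it are shown for these 3 because they rose and carry the letters that NR4A receptors are known to bind. The element is in capitals, as AAAGGTCA or as its reverse complement TGACCTTT.
Gas2, chr1:110618367-110618426, plus strand: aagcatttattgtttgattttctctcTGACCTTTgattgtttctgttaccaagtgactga
Chia, chr2:196302596-196302655, plus strand: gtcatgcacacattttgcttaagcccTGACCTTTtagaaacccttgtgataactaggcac
Fsd1l, chr5:73052437-73052496, plus strand: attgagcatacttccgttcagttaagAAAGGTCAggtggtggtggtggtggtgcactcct
The element begins 128 bases before the start of Gas2, 65 before that of Chia and 102 before 1 of the 5 starts listed for Fsd1l. It was present in 410 of all 27457 genes with a promoter entry (1.49%) and in 140 of the 11733 measured ones (1.19%). It was found in 4 of 196 genes called higher (2.04%) and in 2 of 18 called lower (11.1%). These matches are a description of letters and not of binding.

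Gas2, a growth arrest-specific gene of the actin cytoskeleton, read 7.30, 7.09, 7.12, 7.18 and 7.03 in the GFP arrays and 9.11, 9.40, 9.22, 8.46 and 9.08 in the Nr4a3 arrays. The groups were separated by more than 1 log2 unit, and the rise was 1.91 ± 0.19 (adjusted p = 1.04e-05). Chia read between 4.29 and 4.54 in the GFP arrays and 6.57, 6.43, 6.65, 5.65 and 5.47 in the Nr4a3 arrays. Fsd1l, whose product has a fibronectin and a SPRY domain, read 8.24, 8.31, 8.37, 8.07 and 8.14 in the GFP arrays and 9.66, 10.04, 9.63, 9.28 and 9.33 in the Nr4a3 arrays. Its rise of 1.36 ± 0.13 (adjusted p = 6.87e-06) had the smallest SE of the 20 genes.

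Genes of mitosis were higher together. Of 70 measured, 37 rose and none fell, while 1.75% of all genes rose, and the list median was 0.64 against 0.0033. Without Nr4a3 replicate 2, 38 rose, with a median of 0.59. By role the called genes were spread over the whole process, with 8 of 21 kinetochore and centromere genes, 8 of 14 spindle checkpoint and kinase genes, 11 of 19 kinesin and spindle genes, 7 of 12 chromosome genes and 3 of 4 cytokinesis genes. The count depended on single arrays. It was 16, 14, 17 or 14 without GFP replicate 1, 2, 3 or 5 and 14 without Nr4a3 replicate 1 or 3, and a fit to only the 10 arrays gave 14.

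Ect2, which starts the contractile ring that divides the cell, had the largest rise of this list. It read 6.32, 6.26, 6.19, 7.03 and 5.65 in the GFP arrays and 7.97, 8.30, 8.27, 7.30 and 7.59 in the Nr4a3 arrays, a 3.01-fold rise (1.59 ± 0.27, adjusted p = 0.00344). Kif20b, a kinesin of late mitosis, read 5.52, 5.32, 5.38, 6.03 and 5.33 in the GFP arrays and 7.09, 8.06, 6.95, 6.13 and 6.30 in the Nr4a3 arrays. In both genes the highest GFP array was replicate 4 and the lowest Nr4a3 array was replicate 4, and the gap between those 2 was under 0.3. The kinetochore genes Nuf2 (1.14 ± 0.17), Spc25 (1.26 ± 0.22) and Spc24 (0.89 ± 0.16), which join chromosomes to microtubules, rose, as did the mitotic kinase gene Pbk (1.17 ± 0.20). Nuf2 read 6.62, 6.96, 6.73, 7.28 and 6.61 in the GFP arrays and 8.15, 8.31, 8.13, 7.57 and 7.76 in the Nr4a3 arrays.

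Several genes were picked with their values known. The proliferation marker Mki67 read 6.68, 6.27, 6.41, 7.04 and 5.66 in the GFP arrays and 8.06, 7.36, 7.87, 7.06 and 7.26 in the Nr4a3 arrays. GFP replicate 4 and Nr4a3 replicate 4 were almost level, and the rise was 1.11 ± 0.26 (adjusted p = 0.0317). It lost the call without any 1 of GFP replicates 1, 2, 3 and 5 or Nr4a3 replicates 1 and 3 (highest adjusted p 0.1). Cdca8 of the chromosomal passenger complex (0.75 ± 0.14), the spindle motor gene Kifc1 (0.95 ± 0.19), the spindle gene Nusap1 (1.03 ± 0.20) and the condensin gene Ncapd2 (0.65 ± 0.13) kept their calls whichever single array was left out. The topoisomerase gene Top2a differed by 0.50 ± 0.16 (adjusted p = 0.148), which did not pass. Its other probe set, with a mean of 7.37 against 7.68, rose by 0.86 ± 0.19 (adjusted p = 0.0209 in limma over all probe sets). Without Nr4a3 replicate 2 that probe set rose by 0.84 (adjusted p = 0.0277), so the 2 probe sets of Top2a differ in their call. Plk1, a master kinase of mitosis, differed by 0.29 ± 0.16 and did not pass.

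Among 25 genes of cell cycle entry and cyclins, 9 rose and none fell, with a median of 0.26, and 11 rose without Nr4a3 replicate 2. The S phase cyclin gene Ccne1 read 6.46, 6.41, 6.31, 6.58 and 6.29 in the GFP arrays and 7.90, 7.38, 7.58, 7.09 and 7.38 in the Nr4a3 arrays. It rose 2.07-fold (1.05 ± 0.14, adjusted p = 0.000359). Its relative Ccne2 rose by 1.05 ± 0.22, and by 0.77 ± 0.13 on leaving out Nr4a3 replicate 2, which read 8.64 against 6.95 to 7.50 in the other 4. The dimmer probe set of Ccne2 differed by 0.04, and by -0.11 without that array, so its probe sets disagree. Ccne2 lost its call when a gene's probe sets were averaged and in a fit to only the arrays of the groups compared. Cdk1, the kinase of mitotic entry, rose by 1.23 ± 0.26 (adjusted p = 0.0138) and the mitotic cyclin gene Ccnb2 by 1.19 ± 0.25 (adjusted p = 0.0146). Cdk1 lost the call without GFP replicate 5 or Nr4a3 replicate 1, and Ccnb2 without GFP replicate 5 or Nr4a3 replicate 3 (highest adjusted p 0.0519 and 0.0552). The D cyclins, which start the cycle in response to growth signals, did not pass, and Ccnd1, Ccnd2 and Ccnd3 differed by -0.60, -0.058 and -0.23 with all arrays. Without Nr4a3 replicate 2 no gene of this list lay below -0.30, so much of the Ccnd1 difference came from that array. E2f1, the transcription factor of S phase entry, differed by 0.51 ± 0.17 (adjusted p = 0.152) with all arrays and rose by 0.64 ± 0.15 (adjusted p = 0.0252) without Nr4a3 replicate 2.

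DNA replication genes were also higher. All 47 measured lay above 0, where 50.7% of all genes did, and 13 rose and 0 fell (median 0.38). When Nr4a3 replicate 2 was left out, 45 lay above 0 and 18 rose (median 0.40). With all arrays 5 of 15 origin licensing and helicase genes, 5 of 23 polymerase, clamp and fork genes, 1 of 4 nucleotide genes and 2 of 5 chromatin genes rose. Single arrays and the choice of arrays moved the count, to 8 without GFP replicate 1, 2 or 3, to 7 without GFP replicate 5 or Nr4a3 replicate 1 or 3, and to 6 in a fit to only the 10 arrays. Pole, the leading strand polymerase, read 5.14, 5.55, 5.19, 5.18 and 5.13 in the GFP arrays and 5.99, 5.93, 5.79, 5.72 and 5.76 in the Nr4a3 arrays. The rise was small but every Nr4a3 array was above every GFP array (0.60 ± 0.10, adjusted p = 0.00259). Rfc2 of the clamp loader rose by 0.47 ± 0.08, Rpa3, a subunit of the protein that coats single-stranded DNA, by 0.62 ± 0.12, and Chaf1a, which loads histones behind the fork, by 0.57 ± 0.10.

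The helicase subunit gene Mcm6 depended on Nr4a3 replicate 2. It read 7.32, 7.45, 7.14, 7.25 and 7.16 in the GFP arrays and 8.66, 7.16, 8.32, 7.93 and 8.13 in the Nr4a3 arrays. Replicate 2 lay among the GFP arrays, and Mcm6 differed by 0.78 ± 0.21 (adjusted p = 0.0718) with it and rose by 1.0 ± 0.17 (0.00265) without it. The primase gene Prim1, picked with its values known, did so too, at 0.64 ± 0.18 (adjusted p = 0.0794) with that array and 0.87 ± 0.12 (0.00034) without it. Timeless, a fork protection gene, went the other way. Nr4a3 replicate 2 read 7.57 against 5.88 to 6.58 in the other 4, and the change was 1.06 ± 0.21 (adjusted p = 0.0113) with it and 0.80 ± 0.14 (0.00273) without it. The DNA methylation maintenance gene Uhrf1 did not pass either way (0.49 ± 0.19, adjusted p = 0.263, with all arrays).

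**Figure D3:**
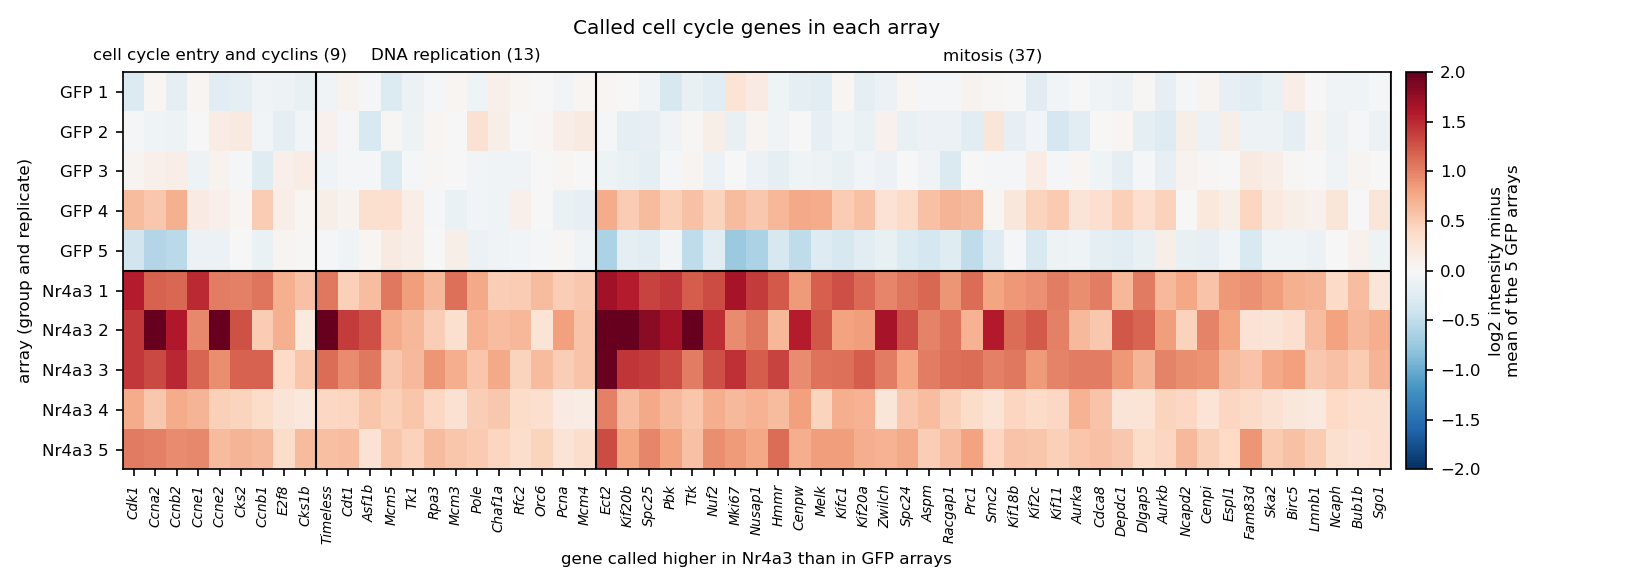
Log2 intensity minus the mean of the 5 GFP arrays (colour, limited to between -2 and 2) for the called genes of cell cycle entry (9), DNA replication (13) and mitosis (37), with arrays as rows. Columns were chosen for being called, GFP replicate 4 is the warmest GFP row in the mitosis block, and Nr4a3 replicate 4 is the palest Nr4a3 row.

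Brakes of the cell cycle and repair genes were listed separately. Of 12 genes of CDK inhibitors and the RB family, 2 rose and none fell (median 0.12). They were Cdkn1c and Cdkn3, whose product is a phosphatase of cyclin-dependent kinases that is itself made in dividing cells (1.23 ± 0.28, adjusted p = 0.0254). Cdkn3 missed the threshold when any 1 of GFP replicates 1, 2, 3 and 5 or Nr4a3 replicates 1 and 3 was left out (highest adjusted p 0.0833). Cdkn1a, which encodes p21, differed by -0.18 ± 0.14 and Cdkn1b, which encodes p27, by -0.10 ± 0.10, and neither passed. No gene of 19 p53 target genes was called (median -0.087). Of 22 repair and checkpoint genes, 2 rose, among them Parpbp (0.63 ± 0.14, adjusted p = 0.017), with a median of 0.27. Leaving out GFP replicate 1, 2 or 5 or Nr4a3 replicate 3 ended the call of Parpbp (highest adjusted p 0.0598). Of 19 genes of the anaphase-promoting complex, which tags mitotic proteins for destruction, 2 rose, the ubiquitin-conjugating enzyme gene Ube2c (1.17 ± 0.24, adjusted p = 0.0136) and the subunit gene Cdc16 (0.29 ± 0.07, adjusted p = 0.0377), with a median of 0.11. Ube2c lost its call without Nr4a3 replicate 1, and Cdc16 without any 1 GFP array or without Nr4a3 replicate 1, 3 or 5 (highest adjusted p 0.051 and 0.1). The dimmer probe set of Cdc16, at a mean of 7.48, differed by -0.09, and by 0.12 without Nr4a3 replicate 2. Cdc16 also lost its call when its probe sets were averaged (adjusted p = 0.613 in limma).

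Markers of other pancreatic cells were set beside the cell cycle genes. In whole islets a change in the number of cells of a type and a change in RNA per cell cannot be told apart. The mean of the mitosis list was 6.38, 6.38, 6.40, 6.73 and 6.26 in GFP replicates 1 to 5 and 7.17, 7.30, 7.19, 6.77 and 6.91 in Nr4a3 replicates 1 to 5 (mean log2 intensity). The mean of 33 acinar cell genes was 7.51, 8.79, 7.03, 8.90 and 7.38 in the GFP arrays and 9.19, 8.85, 8.43, 8.43 and 8.48 in the Nr4a3 arrays. The acinar ranges overlapped while the mitosis ranges did not. GFP replicates 2 and 4 both had a high acinar mean, and of these only replicate 4 also had a high mitosis mean. Untreated replicate 5 had the highest acinar mean outside the Nr4a1 group, 9.90, and its mitosis mean of 6.83 lay above Nr4a3 replicate 4. The part of these other cells in the cell cycle results was not tested.

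Acinar cells make the digestive enzymes. Of their 33 measured genes 29 were above 0, with a median of 0.71, but only Gatm and Cuzd1 (0.54 ± 0.14, adjusted p = 0.0416) rose and none fell. The trypsinogen gene Prss1 read 10.72, 12.32, 9.31, 12.49 and 10.39 in the GFP arrays and 13.10, 11.72, 12.44, 12.32 and 12.34 in the Nr4a3 arrays, and the difference of 1.34 ± 0.59 (adjusted p = 0.341) was within the spread between arrays. The trypsin inhibitor gene Spink1 differed by 2.48 ± 0.69 (adjusted p = 0.0765), with GFP arrays between 6.39 and 9.20 and Nr4a3 arrays between 9.21 and 11.41. A second probe set of Spink1 differed by 2.18 ± 0.65 (adjusted p = 0.126 in limma over all probe sets). The dimmest one rose by 1.39 ± 0.26 (adjusted p = 0.00722), and by 1.42 (0.00713) without Nr4a3 replicate 2. Cuzd1 missed the threshold when any 1 of 7 arrays, GFP replicates 1, 2, 3 and 5 or Nr4a3 replicates 1, 3 and 5, was left out (highest adjusted p 0.121). Of 17 duct cell genes only Car2 rose (median 0.014).

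Genes of endothelial cells, which line blood vessels, were lower. All 25 measured were below 0, with a median of -0.37, and 2 fell, the receptor genes Kdr and Flt1 of vascular endothelial growth factor. Flt1 read 8.23, 8.38, 8.33, 8.60 and 7.95 in the GFP arrays and 7.86, 7.58, 7.55, 7.54 and 7.38 in the Nr4a3 arrays. It fell by 0.72 on the log2 scale with and without Nr4a3 replicate 2 (adjusted p = 0.0158 and 0.0175) and kept the call whichever single array was left out. Kdr differed by -1.09 ± 0.26 (adjusted p = 0.034) with all arrays and by -0.90 ± 0.25 (0.0532) without Nr4a3 replicate 2, and it also lost the call without GFP replicate 1, 2, 3 or 4 or Nr4a3 replicate 3 or 5 (highest adjusted p 0.0966). Without Nr4a3 replicate 2, 1 gene was above 0 and 3 genes of the list fell, with a median of -0.44. Cd93 and Emcn, surface proteins of these cells, were then called at -0.77 and -0.69, and so was S1pr1, a lipid receptor outside the list, at -0.70. The dimmer probe set of S1pr1 then differed by 0.11. The mean of the list was 7.39, 7.12, 7.13, 7.53 and 6.92 in the GFP arrays and 6.93, 7.0, 6.60, 6.79 and 6.74 in the Nr4a3 arrays. No gene of 29 stellate cell and fibroblast genes (median -0.12) or of 29 macrophage and leukocyte genes (median -0.15) was called.

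**Figure D4:**
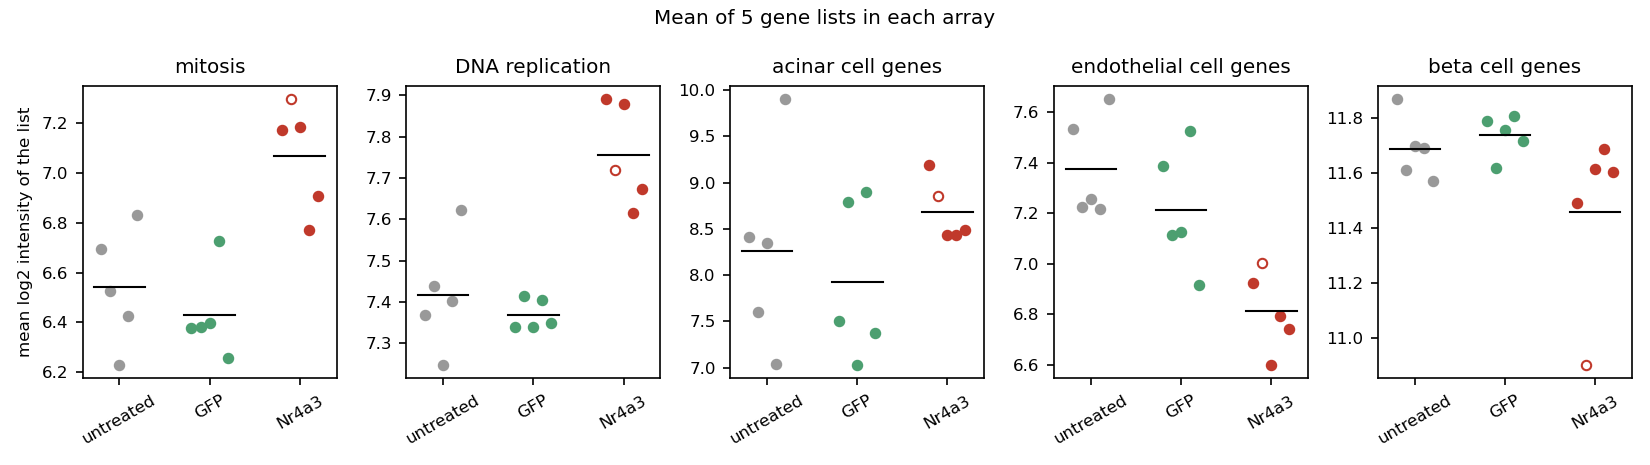
Mean log2 intensity (vertical axis) of the mitosis, DNA replication, acinar, endothelial and beta cell lists in each untreated, GFP and Nr4a3 array, with the group mean as a line and Nr4a3 replicate 2 as an open circle. The mitosis and DNA replication means of the Nr4a3 arrays lie above all GFP arrays, whereas the acinar means overlap with GFP. Untreated arrays overlap the Nr4a3 arrays in both lists. They reach 6.833 for mitosis and 7.623 for DNA replication, where the lowest Nr4a3 means are 6.773 and 7.616.

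Most beta cell genes were below 0, and 2 passed the test. Of 24 measured, 1 lay above 0 with all arrays and 6 without Nr4a3 replicate 2, and with all arrays the groups did not overlap in 4 lower genes and 1 higher (1.51% and 3.12% of all genes). Chgb, which encodes a secretory granule protein, rose (0.47 ± 0.09, adjusted p = 0.00908) and Gipr, the receptor of the incretin hormone GIP, fell. Gipr read 9.59, 9.41, 9.48, 9.58 and 9.12 in the GFP arrays and 8.75, 8.53, 8.85, 8.82 and 9.03 in the Nr4a3 arrays, a fall by 0.64 on the log2 scale (adjusted p = 0.00563). The list median was -0.27, and -0.13 without Nr4a3 replicate 2, whose list mean of 10.90 lay below the 11.49 to 11.69 of the other Nr4a3 arrays and the 11.62 to 11.81 of the GFP arrays. Ins1 differed by -0.05 ± 0.06 and Ins2 by -0.02 ± 0.06. The transcription factor genes Pdx1 (-0.39 ± 0.13, adjusted p = 0.142) and Nkx6-1 (-0.16 ± 0.12, adjusted p = 0.601) did not pass. No gene of 13 other islet hormone cell genes was called, and Gcg differed by -0.06 ± 0.08 and Sst by -0.30 ± 0.28. Without Nr4a3 replicate 2 Gcg differed by 0.02 and Sst by 0.03.

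The 15 largest falls among genes called with and without Nr4a3 replicate 2 were between -0.72 and -0.38. Cdh1, which encodes E-cadherin, the adhesion protein between epithelial cells, read 11.355, 11.325, 11.291, 11.361 and 11.221 in the GFP arrays and 10.804, 10.804, 10.876, 10.997 and 10.919 in the Nr4a3 arrays. The gap was small next to a narrow spread, and it fell by 0.43 (SE 0.07, adjusted p = 0.00264). Its other probe set, near the lower end of the scale at a mean of 3.50, differed by 0.20. Pfkfb2, which sets the level of an activator of glycolysis, read 9.02, 9.10, 9.21, 9.06 and 8.92 in the GFP arrays and 8.56, 8.62, 8.72, 8.76 and 8.61 in the Nr4a3 arrays, a fall by 0.40 (adjusted p = 0.00708). Both lost the call when a gene's probe sets were averaged, with an adjusted p of 0.59 and 0.0583.

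Hmox1, the heme oxygenase of oxidative stress, read 12.89, 12.80, 12.53, 12.46 and 12.65 in the GFP arrays and 11.88, 11.99, 12.08, 12.37 and 11.70 in the Nr4a3 arrays. The groups did not overlap, and the fall by 0.66 had an adjusted p of 0.0254. The interleukin 6 receptor gene Il6r changed by -0.62, the collagen gene Col27a1 by -0.52, the amino acid transporter gene Slc7a2 by -0.49 and the L-type calcium channel gene Cacna1c by -0.38. Prp2l1, Exoc3l2, Asap2, Kdm7a, Tbcel and Kmt2d changed by -0.65 to -0.42. In 12 of the 15 largest falls the groups did not overlap, where 1.51% of all genes were lower without overlap. The 15 were picked for their fall in the same arrays, so this count is no separate support. Flt1, Gipr, Cdh1 and Pfkfb2 kept their calls whichever single array was left out, and the other 11 lost theirs without at least 5 of the 10 arrays, among them Nr4a3 replicate 1 for all but Exoc3l2 and GFP replicate 1 for all but Slc7a2. Of the 7 with more than 1 probe set, 4 moved the same way in all of them.

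Some genes were called only with or only without Nr4a3 replicate 2. Called only with it were the rises of Spink1l (2.21), Ndp (1.19), Cenpw (0.98), Aldh1a1 (0.82) and Cd55 (0.80), and the falls of Kdr, Cyp1a1 (-0.81), Cacna1h (-0.63), Ryr2 (-0.51) and Traf3ip1 (-0.41), with all arrays. Without it their adjusted p lay between 0.050 and 0.0706, and each of the 10 missed the threshold without at least 7 of the 10 arrays in turn, that array included. Called only without it, at their values without it, were the rises of Mcm6, the aromatic amino acid decarboxylase gene Ddc (0.96), Zfp367 (0.94), the proton pump subunit gene Atp6v0e2 (0.90) and Clcn4 (0.87), and the falls of Cd93, the insulin-like growth factor receptor gene Igf1r (-0.71), S1pr1, Emcn and Notch1 (-0.54). Atp6v0e2 read 10.34 to 10.45 in the GFP arrays and 11.45, 9.70, 11.40, 11.13 and 11.26 in the Nr4a3 arrays. Replicate 2 was thus the lowest of all 10, and the adjusted p of Atp6v0e2 was 0.23 with that array and 6.28e-07 without it. Other probe sets of some of these genes did not share this dependence. With and without that array their adjusted p (limma over all probe sets) was 0.276 and 0.0354 for Ryr2, 0.00841 and 0.00386 for Notch1, and 0.0221 and 0.0355 for Cenpw. The other probe set of S1pr1 differed by 0.48 and 0.11 and did not pass.

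Metabolic and stress lists held up to 4 called genes each, apart from the amino acid list. Of 38 xenobiotic and oxidative stress genes 2 rose, Ephx1 (1.18 ± 0.26) and Aldh1a1, and 2 fell, Hmox1 and Cyp1a1, with a median of -0.18. The calls without Nr4a3 replicate 2 were Ephx1, which rose, and Hmox1, which fell. The epoxide hydrolase gene Ephx1 read 6.74 in Nr4a3 replicate 2, within the GFP range of 6.35 to 6.89, and 7.39 to 8.74 in the other 4, and its call was lost without GFP replicate 3 or 5 or Nr4a3 replicate 1 or 3 (highest adjusted p 0.0646). In cholesterol synthesis 2 of 19 rose, Fdft1 (0.59 ± 0.12) and Stard4 (0.52 ± 0.10). The glycogen-priming gene Gyg1 rose by 1.15 ± 0.17 (adjusted p = 0.00101), the only rise of 41 glycolysis and gluconeogenesis genes, and Pfkfb2 was the only fall. In the unfolded protein response 1 of 38 rose, the transcription factor gene Xbp1, by 0.47 ± 0.10, and by 0.57 ± 0.07 (adjusted p = 0.000114) when Nr4a3 replicate 2 was left out. Of 36 interferon response genes Usp18 rose (0.89 ± 0.18, adjusted p = 0.0137), a call lost without GFP replicate 5 (adjusted p = 0.0501), and of 37 NF-kB and inflammatory genes Il6r fell. Of 43 exocytosis and calcium channel genes the calcium channel genes Cacna1c and Cacna1h fell with all arrays. On leaving out Nr4a3 replicate 2, 1 fell, Cacna1c, and 2 rose, the vesicle priming gene Cadps2 (0.43) and the calcium channel subunit gene Cacnb2 (0.29), both named with their values known.

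With all arrays 13 of the 36 lists held no called gene. Among them were 33 immediate early genes, 24 lipogenesis genes, 33 fatty acid oxidation genes, 47 oxidative phosphorylation genes, 30 cytosolic ribosomal protein genes, 35 apoptosis genes and 22 heat shock genes, with medians between -0.091 and 0.0097. In 5 of these 7 lists the sign of the median differed without Nr4a3 replicate 2. The oxidative phosphorylation median was -0.062 with that array and 0.11 without it. Without it 47 of 47 genes were above 0, where 56.2% of all genes were, and 2 rose. The ribosomal median was -0.091 with it and 0.050 without it. Those of lipogenesis, fatty acid oxidation and apoptosis went from -0.0013, -0.0010 and -0.039 to 0.032, 0.073 and 0.021.

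**Figure D5:**
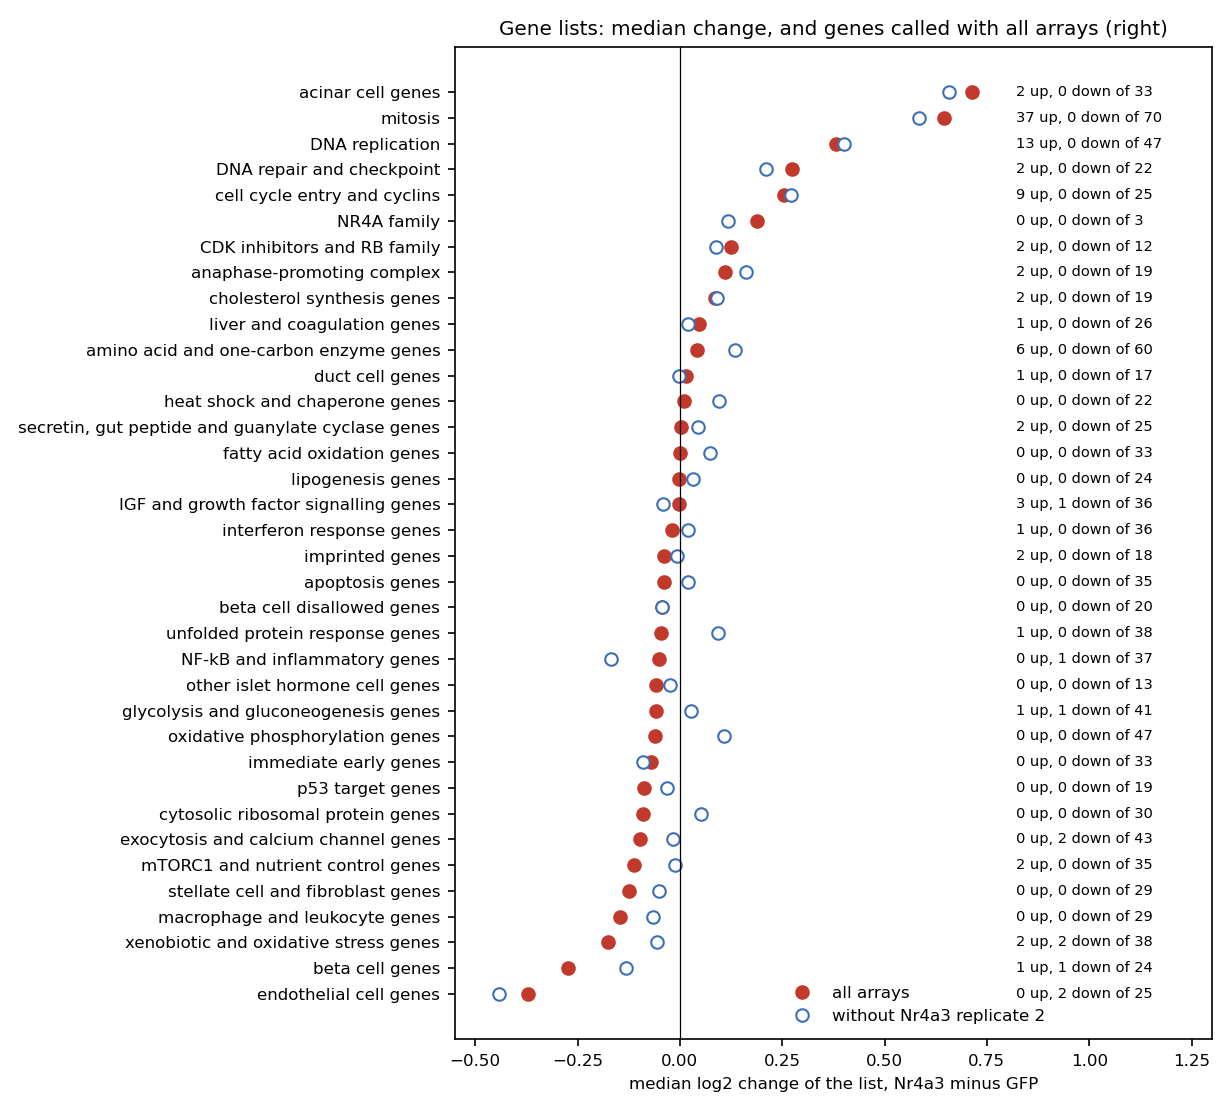
Median log2 change, Nr4a3 minus GFP (horizontal axis), of 36 gene lists with all arrays (filled) and without Nr4a3 replicate 2 (open), with the number of called genes at the right. The acinar and mitosis lists have the highest medians, at 0.71 and 0.64, but hold 2 and 37 called genes.

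Set directly against the arrays labelled Nr4a1, the Nr4a3 arrays differed in few genes. With all arrays 5 genes (0.0352%) were higher and 85 (0.598%) lower in the Nr4a3 arrays, and 17 (0.12%) and 116 (0.816%) without Nr4a3 replicate 2. Of the 249 genes higher than GFP, 18 were also lower than in the Nr4a1 arrays and 1 was higher, and none of the 25 genes lower than GFP differed. Gas2 had a median of 10.84 in the Nr4a1 arrays, 9.11 in the Nr4a3 arrays and 7.12 in the GFP arrays, and it was lower by 1.65 in Nr4a3 than in Nr4a1 (adjusted p = 0.000194). Kcnd2 and Trim16 were lower by 1.43 and 0.72 (both with an adjusted p of 0.0342). Gyg1 read 11.38, 11.45, 10.99, 10.45 and 10.70 in the Nr4a3 arrays and 13.03, 13.02, 12.31, 13.01 and 12.73 in the Nr4a1 arrays, lower by 1.83 (adjusted p = 2.14e-05). The other 17 of the 20 largest rises did not pass this test, and Sct differed by -0.17, Gucy2c by -0.39 and Nnat by -0.60.

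Kctd12, an auxiliary subunit gene of GABA-B receptors, was the 1 gene higher than in both groups. It read 9.03, 8.76, 8.67, 8.73 and 8.78 in the GFP arrays, 9.11, 9.36, 9.43, 9.26 and 9.25 in the Nr4a3 arrays and 8.70, 8.87, 8.86, 8.92 and 8.57 in the Nr4a1 arrays. It rose by 0.49 ± 0.09 (adjusted p = 0.00672) over GFP and was 0.50 higher than in Nr4a1 (adjusted p = 0.0107). Its dimmer probe set, at a mean of 4.53, differed from GFP by 0.06. The call over GFP was lost when the probe sets of Kctd12 were averaged (adjusted p = 0.203 in limma). The other 4 genes above the Nr4a1 arrays were Mycl (0.57), the fatty acid synthase gene Fasn (0.41), Mnt (0.32) and Rbpms (0.31), none of which passed against GFP. No gene of the mitosis or DNA replication lists differed between the Nr4a3 and Nr4a1 arrays. A fit to only these 10 arrays called 1 gene between them, and single arrays moved the total of 90 to 43 or 47 without Nr4a1 replicate 1 or 4 and to 55 without Nr4a3 replicate 4.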

How the data were processed

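Expression was measured on an Affymetrix rat array, with 1 array per sample and 20 samples. The authors deposited intensity values of 31099 probe sets on a linear scale, made with RMA per the submitters' processing notes, with no version stated. RMA sets all arrays to 1 distribution, so array medians (98.9 to 103) say nothing of RNA amount. Values were log2-transformed without rescaling. Of the probe sets, 57 are controls, 436 have several gene symbols, 9780 none and 20826 have 1. The number of arrays limits the precision.

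With limma 3.58.1, group means were estimated over all 20 arrays in 1 model (R 4.3.3, 16 residual and 3.64 prior degrees of freedom), and again over 19 arrays without Nr4a3 replicate 2 (15 and 3.83). The fit was tested on simulated data. Genes, lists (36 lists, 1083 of 1245 entries measured) and role groups were chosen with earlier results of these data known. Named by rule were the NR4A family, the 20 largest rises and 15 largest falls called with and without that array, up to 4 called genes per list by smallest adjusted p (2 by smallest p where none was called), the 5 largest gains and losses of each sign without that array, and the 5 largest differences of each sign from Nr4a1. Unnamed loci were left out. Names outside this rule, among them Mki67, Top2a, Plk1, Cdca8, Kifc1, Nusap1, Ncapd2, Spc24, the D cyclins, E2f1, Timeless, Prim1, Uhrf1, Cdkn1a, Cdkn1b, Aass, Gamt, the hormone, Pdx1, Nkx6-1, Prss1 and Spink1 genes, and Sctr, Guca2a, Guca2b and Ddit4, were picked with their values known. Pairing by replicate number was checked by correlating deviations of same-numbered GFP and Nr4a3 arrays from their group means, which gave -0.20 to 0.17. The numbers were not taken to pair samples. The group means included Nr4a3 replicate 2, and untreated and Nr4a1 arrays were not used, so this check cannot exclude pairing.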

Additional observations from a re-analysis of the deposited data

Results flagged for a closer look

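Of 338 sets of 5 arrays tested, 33 held 1 array far from its 4 neighbours, by a criterion that chance alone meets in about 1 set in 20. In 19 of the 33 the array was Nr4a3 replicate 2. The beta-actin and GAPDH controls had already singled this array out before these sets were tested. Atp6v0e2, Ddc, Notch1, Cenpw and Traf3ip1 were named because leaving it out changed their call. The 19 flags are therefore in part a product of that choice and no separate evidence about the array. That array stood apart in the control probe sets of beta-actin (4.62) and GAPDH (2.06, both log2 3' minus 5'), in its mean correlation with the other arrays (0.941) and in the mean of the beta cell list (10.90). Among single genes it was low for Ins1 (14.66), Gcg (14.37), Pyy (11.15), Rpl7 (11.44), Acly (12.07), Btg1 (12.67), Gadd45a (8.79), Ddc (9.48), Atp6v0e2 (9.70), Pdgfrb (6.84) and Traf3ip1 (7.64), and high for Cox5a (9.28), Rpl30 (5.91), Notch1 (8.80) and Cenpw (6.99).

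GFP replicate 4 was the array set apart in 7 sets. It was high for the cell division genes Ccnb1 (7.09), Spc25 (6.97), Racgap1 (8.55), Ube2c (8.15) and Parpbp (6.54) and for Nnat (9.24), and it had the lowest mean correlation of the GFP arrays (0.986). The other 7 flags were spread over 5 arrays. GFP replicate 1 was low for Aass (9.45) and Dusp5 (8.06), GFP replicate 2 was high for Pole (5.55) and Hsph1 (10.22), GFP replicate 5 was low for Scn1a (4.0), Nr4a3 replicate 1 was high for Prss3 (8.12) and Nr4a3 replicate 3 was high for Top2a (8.39).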

How the results depend on the processing

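All alternatives had been listed at the outset. Of 102 named genes called with all arrays, none changed direction, 35 kept the call in each of up to 20 alternatives and 67 lost it in at least 1. A fit to only the arrays of the 2 groups compared gave 104 rises, 14 mitosis and 6 DNA replication genes, and 1 gene called between Nr4a3 and Nr4a1. The same fit without Nr4a3 replicate 2 gave 528 rises, 176 falls, 26 DNA replication genes and 12 genes against Nr4a1. Array weights, which were 0.0419 for that array, gave 787 rises, 240 falls, 31 DNA replication genes and 274 genes against Nr4a1. A repeated quantile normalization gave 55 falls. The replicate number as a block gave 13 falls and 23 mitosis genes. With single arrays left out, rises ranged from 115 to 472, falls from 5 to 55, called mitosis genes from 14 to 42, called DNA replication genes from 7 to 18 and genes called between Nr4a3 and Nr4a1 from 43 to 133. The causes were not tested. The remaining alternatives (trended variance, median centring, dim genes left out, all probe sets, mean of probe sets) kept these counts within 1.5 times, and no scaling moved the median of all genes by more than 0.1.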
